A study of Mus musculus with 16 samples.

Results

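The axon guidance ligands and receptors of the mouse retina were followed through optic nerve crush and through viral expression of 2 forms of the histone deacetylase HDAC5. Members were all genes whose symbol begins with the letters of a semaphorin (Sema3 to Sema7), plexin, neuropilin, Eph receptor, ephrin, netrin, Slit, Robo, Unc5 or Dcc gene. This rule uses symbols and no measured value, but it was chosen with earlier results of these data known. The rule gave 71 of the 20278 genes listed in at least 1 of 3 deposited tables, and all 71 were listed in every table. Of these, 69 encode guidance proteins, 35 of them ligands and 34 receptors. They comprised 20 semaphorins, 14 Eph receptors, 9 plexins, 8 ephrins, 5 genes of the Dcc and Unc5 group, 4 netrins, 4 Robos, 3 Slits and 2 neuropilins. The other 2 matched by letters only. Unc50 does not encode a guidance receptor, and Plxna4os2 is an antisense RNA within the span of Plxna4.

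Guidance molecules steer growing axons by attracting or repelling the growth cone, the motile tip of the axon. Semaphorins act through plexins, with neuropilins as co-receptors for most class 3 members. Ephrins act through Eph receptor tyrosine kinases, Slits through Robo receptors and netrins through Dcc and Unc5 receptors. In the developing visual system, graded Eph and ephrin signals order the map of retinal ganglion cell axons on their brain targets, Slits and Robos shape their path at the optic chiasm, and netrin guides them out of the eye. Many of these genes stay active in the adult retina, also in cells other than ganglion cells, among them glia and blood vessels.

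RNA sequencing covered 4 groups of retinas, all from C57BL/6 mice of about 6 weeks. GFP, HDAC5AA and HDAC5DAD retinas carried the product named, delivered with the adeno-associated virus AAV2 by injection into the vitreous, and their optic nerve was crushed 2 weeks later and the retina taken 4 days after the crush. Uninjured retinas had no crush, and the labels name no virus for them, so that virus and crush cannot be told apart in any comparison with Uninjured. The study aimed the virus at retinal ganglion cells, whose axons form the optic nerve, but the whole retina was sequenced. What AA and DAD stand for is not in the labels. There were 4 libraries in each group other than GFP, which had 3 (replicates 2 to 4), since GFP replicate 1 was not analysed here. No label says that replicates came from separate mice, and the spread behind each p-value may therefore be technical.

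Each library held between 10939457 (HDAC5AA replicate 4) and 30970658 (Uninjured replicate 3) reads of the genes joined over the tables. Features that hold ribosomal RNA sequence took 0.0212% to 9.87% of them, the most in HDAC5AA replicate 4. Of the Uninjured libraries, replicates 1 and 4 held 1% or more, as did all GFP libraries. In HDAC5AA these were replicates 3 and 4, and in HDAC5DAD replicates 1 and 4. Fits restricted to such libraries therefore rest on fewer libraries in every group but GFP. Markers of rods, cones, bipolar, amacrine, horizontal and retinal ganglion cells were present in all 4 groups, as the label of whole retina requires. Hdac5, the gene of the deacetylase, lay between 6593 and 6959 normalized reads in Uninjured, 6566 and 6673 in GFP, 6694.5 and 8444 in HDAC5AA, with 7467 and 8634 in HDAC5DAD. Its count does not separate a viral from a native transcript.

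Levels below are normalized reads, scaled jointly over the 15 libraries, and levels of different genes are compared per kb of annotated exon. Members had a median of 458 normalized reads in Uninjured, against 229 over all genes of the 3 tables. These medians are not divided by exon length, so they do not show whether members were more strongly expressed per kb than other genes. In Uninjured, 20 of the 71 reached 100 normalized reads per kb and 8 stayed under 10. Sema3f, a secreted class 3 semaphorin that signals through neuropilin-2, stood highest at 899.9 ± 15.6 normalized reads per kb (SD, n = 4). Its normalized reads were 4709, 4622, 4777 and 4601 in Uninjured, 4521, 4673 and 4523 in GFP, 4478, 4374, 4213 and 4654 in HDAC5AA, with 4624, 4029, 4125 and 4412 in HDAC5DAD. The libraries of all 4 groups overlapped, and Sema3f passed in none of the comparisons with Uninjured (log2 fold changes -0.04, -0.08 and -0.13 in GFP, HDAC5AA and HDAC5DAD). It passed in HDAC5DAD without HDAC5DAD replicate 1 (log2 fold change -0.16, adjusted p = 0.0491).

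Other families were led by Ntng2, a membrane-anchored netrin relative (406 ± 65.5 normalized reads per kb), Plxnb1, the receptor of Sema4d (306 ± 28.2), Epha8 (284 ± 14.6), Unc5a (209 ± 23.4), Slit2 (139 ± 8.74), Efnb3 (138 ± 11.0), Robo2 (116 ± 9.63) and Nrp2 (54.0 ± 2.02). Within most families the levels spread widely. Among the ligands of the Robo receptors, Slit3 stood at 3.21 ± 0.779 normalized reads per kb in Uninjured, against 103 ± 12.1 for Slit1. Netrin-1 itself was low (Ntn1, 6.07 ± 0.777 normalized reads per kb), while its receptor Dcc stood at 37.0 ± 3.52. Plxnb3 was the lowest member at 0.69 ± 0.444 normalized reads per kb, and had no read in HDAC5DAD replicate 1. Unc50 stood at 527 ± 44.6 and Plxna4os2 at 5.84 ± 1.59. About 14.1% of the exon length of Efna3, 14.0% of Ntng2 and 10.7% of Plxna1 is shared with exons of another annotated gene, and the strand mode of counting is not given in the sources used here, so these levels are uncertain.

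**Figure D1:**
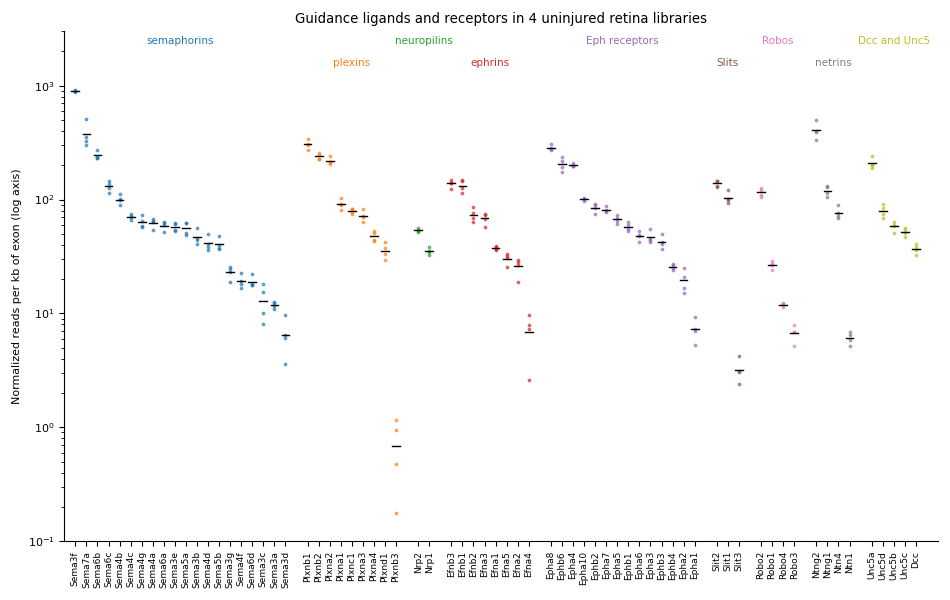
Level of the 69 guidance genes in Uninjured, in normalized reads per kb of exon on a log axis, grouped by family. Points are the 4 libraries and bars their mean. Sema3f stands highest, at 899.9 ± 15.6 normalized reads per kb (SD, n = 4).

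Against Uninjured, members of most families changed after virus and crush, some upward and some downward. In GFP, 18 of 71 members passed the test (limma-trend on log2 normalized reads, Benjamini-Hochberg adjusted p under 0.05 over all genes), 7 higher and 11 lower. That is 25.4% of the members, beside 11.4% of all genes tested (5.57% higher and 5.83% lower). Without GFP replicate 2, and likewise without GFP replicate 4, 7 members were lower. In HDAC5AA, 10 members passed, 4 higher and 6 lower, or 14.1% beside 8.55% of all genes (5.38% higher and 3.17% lower). In HDAC5DAD, 19 members passed, 7 higher and 12 lower, or 26.8% beside 13.3% of all genes (7.8% higher and 5.47% lower). The members' median log2 fold change was -0.07, -0.05 and -0.12 in GFP, HDAC5AA and HDAC5DAD, beside 0.01, -0.01 and -0.01 over all genes. The authors' deposited adjusted p-values were also counted at a threshold of 0.1. By these, 7 members were higher and 13 lower in GFP (13% of all genes passing), 9 and 7 in HDAC5AA (10.1%), and 7 and 17 in HDAC5DAD (15.6%). The 3 comparisons share the same 4 uninjured libraries and are therefore not independent. In whole retina, fewer cells of a type and less RNA per cell cannot be told apart.

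**Figure D2:**
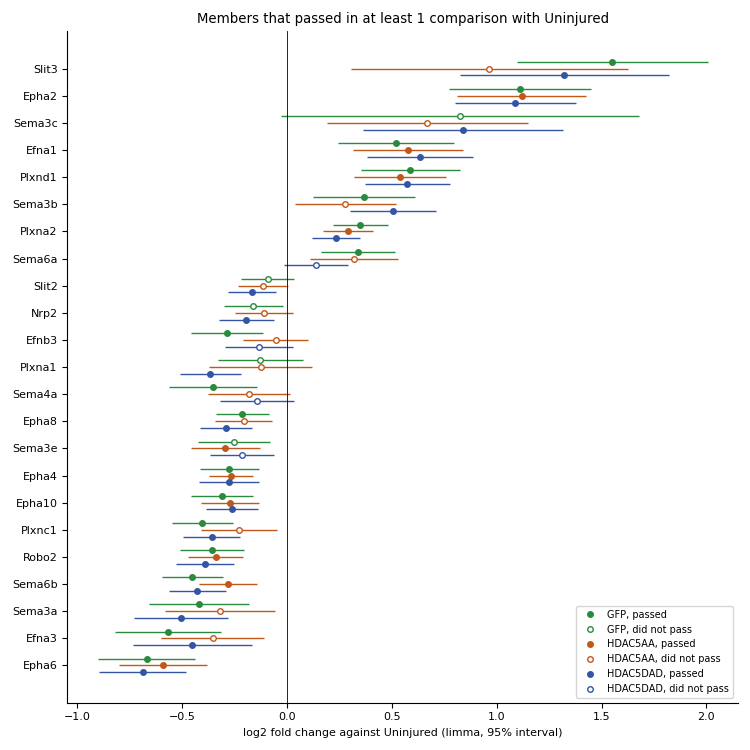
Log2 fold change of each member that passed in at least 1 comparison with Uninjured, with its 95% interval from limma; filled points passed at an adjusted p under 0.05 and open points did not. Slit3 and Epha2 have the largest rises and Epha6 the largest falls, and the values of GFP, HDAC5AA and HDAC5DAD share their uninjured libraries.

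Among the Eph receptors, Epha2 rose and Epha6, Epha4 and Epha10 fell in GFP, HDAC5AA and HDAC5DAD, and Epha8 fell in GFP and HDAC5DAD. Epha2 (chromosome 4, 141301240 to 141329384, plus strand) encodes an EphA receptor tyrosine kinase known from epithelia, vessels and glia as well as neurons. Its normalized reads were 117, 97.7, 71.1 and 77.8 in Uninjured, 233, 175 and 179.9 in GFP, 218, 187, 164 and 216 in HDAC5AA, with 177, 200.0, 206 and 184 in HDAC5DAD. Every injured library lay above every uninjured one. The log2 fold changes were 1.11 (SE 0.16, adjusted p = 0.000107) in GFP, 1.12 (SE 0.15, adjusted p = 3.21e-05) in HDAC5AA and 1.09 (SE 0.14, adjusted p = 1.17e-05) in HDAC5DAD, and the 95% intervals ran from 0.77 to 1.45, 0.81 to 1.43 and 0.80 to 1.38.

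Epha6 (chromosome 16, 59653483 to 60605531, minus strand), an EphA receptor of neurons, showed the largest fall of any member that passed. Its normalized reads were 281, 259, 224 and 251 in Uninjured, 186, 148 and 147 in GFP, 159, 191, 155 and 167 in HDAC5AA, with 159, 175, 149 and 146 in HDAC5DAD. All injured libraries lay below all uninjured ones. The log2 fold changes were -0.67 (SE 0.11, adjusted p = 0.000256) in GFP, -0.59 (SE 0.10, adjusted p = 0.000402) in HDAC5AA and -0.69 (SE 0.10, adjusted p = 4.63e-05) in HDAC5DAD. Epha4 (chromosome 1, 77367185 to 77515088, minus strand), a receptor that binds both ephrin classes and has been studied as a brake on axon regrowth, fell less. It held 1682, 1578, 1596 and 1581 in Uninjured, 1469, 1184 and 1361 in GFP, 1303, 1341, 1361 and 1344 in HDAC5AA, with 1234, 1543, 1364 and 1212 in HDAC5DAD normalized reads. Here too the injured and uninjured libraries did not overlap, although HDAC5DAD replicate 2 came close to the uninjured range. Log2 fold changes were -0.28 (SE 0.07, adjusted p = 0.00897) in GFP, -0.27 (SE 0.05, adjusted p = 0.00118) in HDAC5AA and -0.27 (SE 0.07, adjusted p = 0.009) in HDAC5DAD, and the call ended without GFP replicate 3 (adjusted p = 0.0825) and without HDAC5DAD replicate 4 (adjusted p = 0.0503).

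Epha10, a receptor that lacks kinase activity, fell in parallel, from 700.2, 733, 731 and 737 normalized reads in Uninjured to 579.6, 638 and 544 in GFP, 632, 641, 592 and 545 in HDAC5AA, with 602, 621, 606 and 593 in HDAC5DAD. No injured library reached the uninjured range, and the log2 fold changes were -0.31 (SE 0.07, adjusted p = 0.00493) in GFP, -0.27 (SE 0.07, adjusted p = 0.0103) in HDAC5AA and -0.26 (SE 0.06, adjusted p = 0.00382) in HDAC5DAD. The GFP call ended without GFP replicate 4 (adjusted p = 0.055). The HDAC5DAD call ended in libraries holding 1% ribosomal RNA reads or more (log2 fold change -0.27, adjusted p = 0.0615). Epha8, the Eph receptor with the highest level per kb, held 1322, 1437, 1275 and 1327 in Uninjured, 1157, 1199 and 1121 in GFP, 1114, 1325, 1133 and 1086 in HDAC5AA, with 1098, 1020.0, 1095 and 1181 in HDAC5DAD normalized reads. All libraries of GFP and HDAC5DAD lay below the uninjured ones, while HDAC5AA replicate 2 fell within their range. Epha8 fell in GFP and HDAC5DAD, with log2 fold changes of -0.21 (SE 0.06, adjusted p = 0.0255) and -0.29 (SE 0.06, adjusted p = 0.00187), and in HDAC5AA the value was -0.21 (SE 0.07, adjusted p = 0.0568). The GFP call ended without Uninjured replicate 2, GFP replicate 2 or GFP replicate 4 (adjusted p = 0.0688 to 0.14), and without HDAC5AA replicate 2, as in a joint fit of all libraries (adjusted p = 0.0364), Epha8 passed in HDAC5AA (adjusted p = 0.00487). Both Epha8 calls ended in libraries holding 1% ribosomal RNA reads or more (log2 fold change -0.19, adjusted p = 0.122 in GFP and log2 fold change -0.22, adjusted p = 0.0774 in HDAC5DAD). The other 9 Eph receptors, Epha1, Epha3, Epha5, Epha7 and all 5 EphB receptors, passed in none of the 3 comparisons. The summed level of the family was 1270.2 ± 61.4 normalized reads per kb in Uninjured (SD, n = 4), 1140.4 ± 49.5 in GFP (n = 3), 1164 ± 39.3 in HDAC5AA (n = 4) and 1136 ± 34.6 in HDAC5DAD (n = 4).

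Of the 8 ephrins, the ligands of these receptors, Efna1 rose while Efna3 and Efnb3 had lower values. Efna1 and Efna3 are neighbours on chromosome 3, with Efna4 beside them: Efna1 spans 89271733 to 89281142, Efna3 89313899 to 89322965 and Efna4 89333390 to 89338028, with 32756 and 10424 bases between them. Efna1, a membrane-anchored ligand of EphA receptors including Epha2, held 71.4, 66.8, 66.2 and 70.5 in Uninjured, 95.2, 101 and 101 in GFP, 112, 104, 105 and 91.4 in HDAC5AA, with 102, 107, 117 and 102 in HDAC5DAD normalized reads. All injured libraries lay above all uninjured ones. The log2 fold changes were 0.52 (SE 0.13, adjusted p = 0.0123) in GFP, 0.58 (SE 0.13, adjusted p = 0.00407) in HDAC5AA and 0.63 (SE 0.12, adjusted p = 0.000901) in HDAC5DAD. In libraries holding 1% ribosomal RNA reads or more alone the rise did not pass, with log2 fold changes of 0.47, 0.46 and 0.52 (adjusted p = 0.102, 0.363 and 0.112). These fits kept fewer libraries. Whether that or the ribosomal RNA share ended the calls was not tested. The GFP call also ended without GFP replicate 4 (adjusted p = 0.0576).

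Efna3, another membrane-anchored EphA ligand, held 166, 139, 183 and 178 in Uninjured, 120.1, 103 and 113 in GFP, 139.8, 142, 126 and 113 in HDAC5AA, with 92.5, 142, 139.9 and 118 in HDAC5DAD normalized reads. The GFP libraries lay below all uninjured ones, whereas HDAC5AA and HDAC5DAD each had 2 libraries above the lowest uninjured value. Efna3 fell in GFP and HDAC5DAD, with log2 fold changes of -0.57 (SE 0.12, adjusted p = 0.00302) and -0.45 (SE 0.14, adjusted p = 0.0315), and the HDAC5AA value was -0.35 (SE 0.12, adjusted p = 0.0744). The HDAC5DAD call ended without Uninjured replicate 1, 3 or 4 or HDAC5DAD replicate 1 or 4 (adjusted p = 0.0716 to 0.0958), it also ended in edgeR (adjusted p = 0.0527), and the HDAC5AA value passed without Uninjured replicate 2 (adjusted p = 0.0285). Efna4 passed nowhere, with log2 fold changes of 0.35, 0.33 and 0.14 in GFP, HDAC5AA and HDAC5DAD. Efnb3, the ephrin with the highest level per kb and a ligand that can itself signal into the cell that bears it, held 448, 447, 476 and 392 in Uninjured, 352, 375 and 359 in GFP, 421, 422, 434 and 416 in HDAC5AA, with 399, 372, 432 and 407 in HDAC5DAD normalized reads. It fell in GFP only by the test, with all 3 libraries below the uninjured range and a log2 fold change of -0.28 (SE 0.08, adjusted p = 0.0267), and the values were -0.05 in HDAC5AA and -0.13 in HDAC5DAD. That call ended without Uninjured replicate 1, 2 or 3 or GFP replicate 2 or 4 (adjusted p = 0.0531 to 0.0956) and in libraries holding 1% ribosomal RNA reads or more (log2 fold change -0.21, adjusted p = 0.247).

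The promoters of the members with the largest changes that passed in each comparison with Uninjured, Epha2 and Efna1 upward and Epha6 and Sema6b downward, are shown because each pair moved in 1 direction in all 3 comparisons. Each line gives the 250 bases before the RefSeq transcription start (GRCm38.p6), 5′ to 3′ on the strand of the gene, with matches to the motifs named below in capitals.
Epha2 (chr4:141300971-141301220, plus strand): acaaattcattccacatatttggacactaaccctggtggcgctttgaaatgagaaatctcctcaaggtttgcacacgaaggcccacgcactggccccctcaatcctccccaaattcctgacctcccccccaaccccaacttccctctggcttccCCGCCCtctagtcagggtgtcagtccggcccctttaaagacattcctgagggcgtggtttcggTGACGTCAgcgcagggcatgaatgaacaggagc
Efna1 (chr3:89280952-89281201, minus strand): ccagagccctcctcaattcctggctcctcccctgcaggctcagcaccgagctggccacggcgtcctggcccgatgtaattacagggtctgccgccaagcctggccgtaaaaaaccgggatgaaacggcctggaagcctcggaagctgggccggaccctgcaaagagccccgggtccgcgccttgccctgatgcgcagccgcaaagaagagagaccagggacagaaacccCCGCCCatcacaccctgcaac
Epha6 (chr16:60605532-60605781, minus strand): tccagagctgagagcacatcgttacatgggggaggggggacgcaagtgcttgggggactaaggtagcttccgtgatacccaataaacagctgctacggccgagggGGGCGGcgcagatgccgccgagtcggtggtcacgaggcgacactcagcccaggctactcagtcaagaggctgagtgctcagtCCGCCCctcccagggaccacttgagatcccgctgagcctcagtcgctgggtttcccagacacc
Sema6b (chr17:56140344-56140593, minus strand): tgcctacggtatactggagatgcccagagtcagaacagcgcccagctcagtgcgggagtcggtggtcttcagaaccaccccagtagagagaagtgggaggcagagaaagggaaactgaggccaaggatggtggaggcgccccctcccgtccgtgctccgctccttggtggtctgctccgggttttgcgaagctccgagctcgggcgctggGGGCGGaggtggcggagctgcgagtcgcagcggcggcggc
Both strands were searched for the cyclic AMP response element TGACGTCA, the AP-1 site TGANTCA, the MEF2 consensus and the GC box GGGCGG, none of which overlapped here. Class IIa deacetylases such as HDAC5 are known as partners of MEF2 factors, and AP-1 factors respond to nerve injury. The cyclic AMP element was found in Epha2, and a GC box in all 4 promoters (as its complement, CCGCCC, in Epha2 and Efna1, and in both orientations in Epha6). Neither the AP-1 site nor the MEF2 consensus occurred in these 4 windows. Of the 71 members, 60 had an entry in the promoter table. The GC box was present in 44 of them (73.3%) beside 32.7% of all 32851 windows, and the cyclic AMP element in 1 (Epha2) beside 1.55%. The AP-1 site was present in 1 member (Sema4c) beside 6.75% of all windows, and the MEF2 consensus in 1 (Sema6d) beside 2.92%. The windows of the 4 members held 55.6%, 64.8%, 62.8% and 66.0% G and C, in the order printed, beside a median of 52.4% over all windows.

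Among the semaphorins, Sema6b and Sema3a had lower values after injury and Sema3b and Sema3c higher ones, while most others did not pass. Sema6b (chromosome 17, 56123085 to 56140343, minus strand), a transmembrane semaphorin that binds class A plexins, held 1085, 922, 919.7 and 943 in Uninjured, 705, 729 and 689.6 in GFP, 803, 858, 774 and 747 in HDAC5AA, with 712, 757, 682 and 725 in HDAC5DAD normalized reads. Every injured library lay below every uninjured one. The log2 fold changes were -0.45 (SE 0.07, adjusted p = 0.000107) in GFP, -0.28 (SE 0.07, adjusted p = 0.00864) in HDAC5AA and -0.43 (SE 0.07, adjusted p = 9.79e-05) in HDAC5DAD. Sema3a, the class 3 semaphorin known for collapsing growth cones through neuropilin-1, was among the low members per kb (11.9 ± 0.809 normalized reads per kb in Uninjured). Its normalized reads were 176, 171, 151 and 162 in Uninjured, 123, 113 and 136 in GFP, 108, 135, 123 and 167 in HDAC5AA, with 109.6, 129.8, 119 and 106 in HDAC5DAD. The GFP and HDAC5DAD libraries lay below all uninjured ones, while HDAC5AA replicate 4 lay within their range. Sema3a fell in GFP and HDAC5DAD, with log2 fold changes of -0.42 (SE 0.11, adjusted p = 0.0181) and -0.51 (SE 0.11, adjusted p = 0.00251), and the HDAC5AA value of -0.32 (SE 0.13, adjusted p = 0.151) passed only without replicate 4 (log2 fold change -0.44, adjusted p = 0.0238). The GFP call ended without Uninjured replicate 1 or GFP replicate 2 or 3 (adjusted p = 0.0545 to 0.0988) and in libraries holding 1% ribosomal RNA reads or more (log2 fold change -0.45, adjusted p = 0.0653).

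Sema3c, a class 3 semaphorin that acts on neurons and on vessels, held 130.1, 57.6, 71.7 and 110.0 in Uninjured, 130.0, 227 and 129 in GFP, 119.7, 156, 148 and 140.1 in HDAC5AA, with 181, 155, 159.8 and 138 in HDAC5DAD normalized reads. The HDAC5DAD libraries lay above all uninjured ones, and GFP and HDAC5AA overlapped with them. Sema3c rose in HDAC5DAD (log2 fold change 0.84, SE 0.22, adjusted p = 0.0237), and the values were 0.82 (SE 0.35, adjusted p = 0.233) in GFP and 0.67 (SE 0.22, adjusted p = 0.0972) in HDAC5AA. The HDAC5DAD call ended without Uninjured replicate 3 or HDAC5DAD replicate 1, 2 or 3 (adjusted p = 0.0627 to 0.0805) and in libraries holding 1% ribosomal RNA reads or more (log2 fold change 0.40, adjusted p = 0.201), and HDAC5AA passed without Uninjured replicate 1 (log2 fold change 0.86, adjusted p = 0.00801) and in DESeq2 (adjusted p = 0.0231). The GFP value passed in edgeR (adjusted p = 0.0442) and in the joint fit (adjusted p = 0.0435). Sema3b, also secreted, held 218, 195, 209.5 and 268 in Uninjured, 256, 334 and 272 in GFP, 248, 332, 255 and 245 in HDAC5AA, with 292, 320.1, 338 and 308 in HDAC5DAD normalized reads. Only the HDAC5DAD libraries were all above the uninjured ones. Sema3b rose in HDAC5DAD (log2 fold change 0.50, SE 0.10, adjusted p = 0.00112) and in GFP (log2 fold change 0.37, SE 0.12, adjusted p = 0.0474), and the HDAC5AA value was 0.28 (SE 0.11, adjusted p = 0.187). The GFP call ended without Uninjured replicate 1, 2 or 3 or GFP replicate 3 or 4 (adjusted p = 0.0846 to 0.27), in edgeR (adjusted p = 0.0625) and with a pseudocount of 0.1 (adjusted p = 0.0507). Both Sema3b calls ended in libraries holding 1% ribosomal RNA reads or more (log2 fold change 0.24, adjusted p = 0.351 in GFP and log2 fold change 0.31, adjusted p = 0.176 in HDAC5DAD). The highest Sema3c value and a high Sema3b value belonged to GFP replicate 3, whose 7 markers of the retinal pigment epithelium summed to 4222 normalized reads, the most of any library. Of these markers, 0 passed upward in any comparison, their sum ranged from 717 to 3007 in Uninjured, 628 to 4222 in GFP, 544 to 1482 in HDAC5AA and 776 to 2152 in HDAC5DAD, none was at 0, and their part in these values was not tested.

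Sema3e, a ligand of plexin D1, held 570.0, 579, 502 and 489.7 in Uninjured, 451, 414 and 483 in GFP, 438, 427, 399.8 and 481 in HDAC5AA, with 438, 489, 457 and 461 in HDAC5DAD normalized reads. All injured libraries lay below all uninjured ones, yet only HDAC5AA passed, with log2 fold changes of -0.25 (SE 0.08, adjusted p = 0.0512) in GFP, -0.29 (SE 0.08, adjusted p = 0.0204) in HDAC5AA and -0.21 (SE 0.07, adjusted p = 0.0639) in HDAC5DAD. The HDAC5AA call ended without Uninjured replicate 1 or 2 or HDAC5AA replicate 3 (adjusted p = 0.0749 to 0.0883) and in libraries holding 1% ribosomal RNA reads or more (log2 fold change -0.27, adjusted p = 0.309). GFP passed without Uninjured replicate 3 or 4 (adjusted p = 0.0473 and 0.0311) and in the joint fit (adjusted p = 0.0437), and HDAC5DAD without Uninjured replicate 4 or HDAC5DAD replicate 2 (adjusted p = 0.0397 and 0.0491). Sema6a, a transmembrane ligand of plexins A2 and A4, rose in GFP (log2 fold change 0.34, SE 0.08, adjusted p = 0.0107), with 0.32 in HDAC5AA and 0.14 in HDAC5DAD. That call ended without GFP replicate 2 or 3 (adjusted p = 0.0681 to 0.0728) and in libraries holding 1% ribosomal RNA reads or more (log2 fold change 0.29, adjusted p = 0.0757), and HDAC5AA passed without its replicate 1 (adjusted p = 0.00646), in DESeq2 (adjusted p = 0.0242), with TMM scaling (adjusted p = 0.0499) and in the joint fit (adjusted p = 0.0272). Sema4a, whose loss is known to harm photoreceptors in mice, fell in GFP (log2 fold change -0.35, SE 0.10, adjusted p = 0.0255), and the call ended without Uninjured replicate 1, 2 or 4 or GFP replicate 2 or 4 (adjusted p = 0.0552 to 0.15). The other 13 semaphorins passed in none of the 3 comparisons.

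Of the plexins, the receptors of semaphorins, Plxnd1 and Plxna2 rose. Plxnd1 (chromosome 6, 115954811 to 115995005, minus strand), a receptor of Sema3e known from blood vessels and some neurons, held 275, 307, 214 and 245 in Uninjured, 354, 437 and 380.4 in GFP, 344, 422, 349 and 391 in HDAC5AA, with 394, 382, 399.6 and 364 in HDAC5DAD normalized reads. Every injured library lay above every uninjured one. The log2 fold changes were 0.59 (SE 0.11, adjusted p = 0.00136) in GFP, 0.54 (SE 0.10, adjusted p = 0.00171) in HDAC5AA and 0.57 (SE 0.10, adjusted p = 0.000289) in HDAC5DAD. Plxna2 (chromosome 1, 194618218 to 194816869, plus strand), a receptor of transmembrane semaphorins such as Sema6a, was expressed at a high level and held 3695, 4175, 3543 and 3704 in Uninjured, 4853, 5099 and 4516 in GFP, 4594, 5020.4, 4433 and 4444 in HDAC5AA, with 4602, 4343, 4466 and 4353 in HDAC5DAD normalized reads. Again no injured library reached down to the uninjured range. The rises were small, with log2 fold changes of 0.35 (SE 0.06, adjusted p = 0.000572) in GFP, 0.29 (SE 0.06, adjusted p = 0.00176) in HDAC5AA and 0.23 (SE 0.05, adjusted p = 0.00577) in HDAC5DAD.

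Plxnc1, the receptor of Sema7a, held 696, 693, 649 and 627 in Uninjured, 522, 489 and 502 in GFP, 471, 644, 624 and 551 in HDAC5AA, with 532, 508, 544 and 495 in HDAC5DAD normalized reads. The GFP and HDAC5DAD libraries lay below all uninjured ones, while HDAC5AA replicate 2 lay within their range. Plxnc1 fell in GFP (log2 fold change -0.40, SE 0.07, adjusted p = 0.000395) and HDAC5DAD (log2 fold change -0.36, SE 0.06, adjusted p = 0.000559), and the HDAC5AA value of -0.23 (SE 0.09, adjusted p = 0.134) passed without HDAC5AA replicate 2 (adjusted p = 0.0414). Plxna1, a co-receptor with neuropilins, passed only in HDAC5DAD (log2 fold change -0.37, SE 0.07, adjusted p = 0.000914), where its 4 libraries (649, 644, 648 and 607) lay below the uninjured ones (928, 819, 734 and 808). Its values were -0.13 in GFP and -0.13 in HDAC5AA. Plxnb1, the plexin with the highest level per kb, had overlapping libraries throughout, with 2932, 3290.1, 2903 and 2631 in Uninjured, 2847, 3240.3 and 2881 in GFP, 2727, 2944, 2703 and 2920.2 in HDAC5AA, with 3165, 2584, 2521 and 2932 in HDAC5DAD normalized reads, and log2 fold changes of 0.02, -0.05 and -0.07. Plxnb2, Plxnb3, Plxna3 and Plxna4 passed nowhere. Of these, Plxnb3 had the widest interval, with a log2 fold change of 1.31 in GFP (95% interval 0.37 to 2.26, adjusted p = 0.0674) at a few reads per library.

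Both neuropilins, the co-receptors of class 3 semaphorins, moved little. Nrp2, the partner of Sema3f, held 671, 644, 628 and 616 in Uninjured, 581, 577 and 564 in GFP, 609.6, 639, 576 and 553 in HDAC5AA, with 575, 581, 551 and 534 in HDAC5DAD normalized reads. The GFP and HDAC5DAD libraries lay just below the uninjured ones. Nrp2 fell in HDAC5DAD (log2 fold change -0.19, SE 0.06, adjusted p = 0.0458), with -0.16 in GFP and -0.11 in HDAC5AA, and the call ended without Uninjured replicate 1, 2, 3 or 4 or HDAC5DAD replicate 1, 3 or 4 (adjusted p = 0.0502 to 0.145), in DESeq2 (adjusted p = 0.0536), with TMM scaling (adjusted p = 0.0501) and in libraries holding 1% ribosomal RNA reads or more (log2 fold change -0.22, adjusted p = 0.184). Nrp1, the partner of Sema3a, gave 0.01, 0.01 and -0.06 in GFP, HDAC5AA and HDAC5DAD, and the widest of its 95% intervals ran from -0.18 to 0.20.

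Slit3 rose from a low level, and Robo2, a receptor of Slits, fell. Slit3 (chromosome 11, 35121224 to 35708507, plus strand) held 18.4, 25.9, 19.0 and 14.5 in Uninjured, 62.1, 62.6 and 49.6 in GFP, 50.3, 58.4, 40.7 and 17.5 in HDAC5AA, with 31.3, 70.9, 51.3 and 51.2 in HDAC5DAD normalized reads. All GFP and HDAC5DAD libraries lay above the uninjured ones, as did 3 of 4 HDAC5AA libraries; HDAC5AA replicate 4, the shallowest library, lay within the uninjured range. Slit3 rose in GFP (log2 fold change 1.55, SE 0.22, adjusted p = 3.73e-05) and HDAC5DAD (log2 fold change 1.32, SE 0.24, adjusted p = 0.00053), the largest rise of a member that passed. The HDAC5AA value was 0.96 (SE 0.31, adjusted p = 0.0737), and without replicate 4 it was 1.32 with adjusted p = 0.000709. It also passed there in edgeR (adjusted p = 0.0123) and DESeq2 (adjusted p = 0.00441).

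Robo2 (chromosome 16, 73891839 to 74411825, minus strand), which guides ganglion cell axons in the developing mouse retina and optic chiasm, held 2132, 2066, 1869 and 1783 in Uninjured, 1707, 1439.7 and 1466 in GFP, 1444, 1675, 1569 and 1504 in HDAC5AA, with 1398, 1625, 1544 and 1426 in HDAC5DAD normalized reads. Every injured library lay below every uninjured one. The log2 fold changes were -0.36 (SE 0.07, adjusted p = 0.00229) in GFP, -0.34 (SE 0.06, adjusted p = 0.00102) in HDAC5AA and -0.39 (SE 0.07, adjusted p = 0.000277) in HDAC5DAD. Slit2, the Slit with the highest level per kb, held 3694, 3734, 3376 and 3294 in Uninjured, 3149, 3526 and 3267 in GFP, 3032, 3381, 3145 and 3459 in HDAC5AA, with 3311, 3149.6, 3047 and 3043 in HDAC5DAD normalized reads. The libraries of all injured groups overlapped with the uninjured ones. Slit2 passed in HDAC5DAD only (log2 fold change -0.17, SE 0.05, adjusted p = 0.048), with -0.09 in GFP and -0.12 in HDAC5AA, and the call ended without Uninjured replicate 1 or 2 or HDAC5DAD replicate 2, 3 or 4 (adjusted p = 0.066 to 0.156), in edgeR (adjusted p = 0.0527), with TMM scaling (adjusted p = 0.0508) and in libraries holding 1% ribosomal RNA reads or more (log2 fold change -0.14, adjusted p = 0.305). Slit1 and the receptors Robo1, Robo3 and Robo4 passed nowhere. Robo1 gave -0.22, -0.13 and -0.23, and Robo4, a Robo of blood vessels, 0.38, 0.40 and 0.36 in GFP, HDAC5AA and HDAC5DAD.

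**Figure D3:**
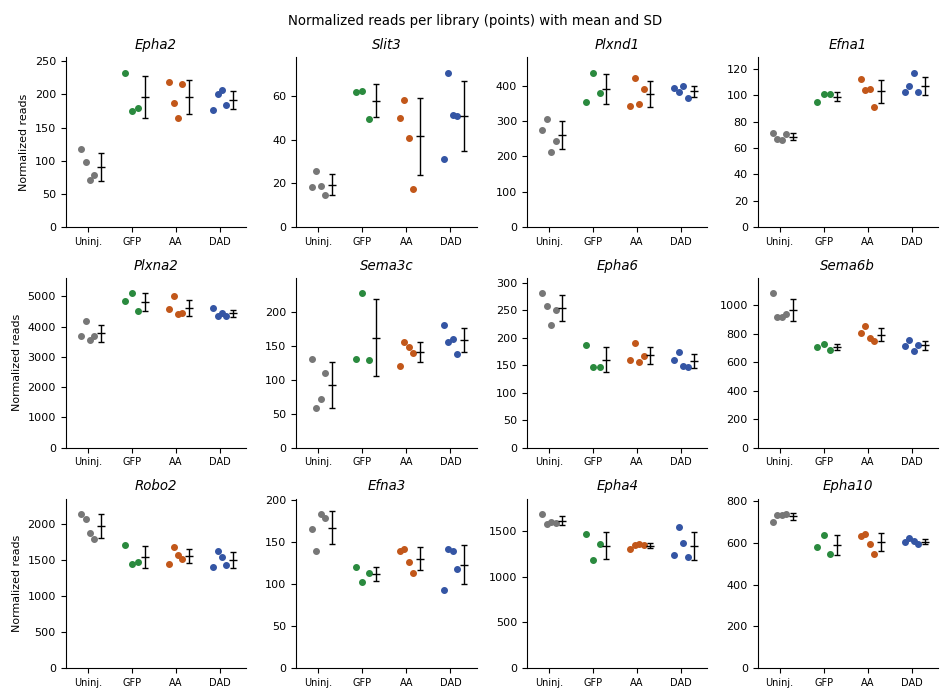
Normalized reads of 12 members in each library (points) for Uninjured (Uninj.), GFP, HDAC5AA (AA) and HDAC5DAD (DAD), with mean and SD beside them; each panel has its own axis, starting at 0. Epha2, Plxnd1, Efna1 and Plxna2 lie above the uninjured range in every injured library and Epha6, Sema6b, Robo2, Epha4 and Epha10 below it, while 1 HDAC5AA library of Slit3 (17.5) stays within it.

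No netrin and no member of the Dcc and Unc5 group passed in any comparison with Uninjured. Ntng2 held 1599.5, 1973, 1341 and 1571 in Uninjured, 1436, 1502 and 1459 in GFP, 1383, 1499, 1478 and 1617 in HDAC5AA, with 1351, 1248, 1285 and 1411 in HDAC5DAD normalized reads, with overlapping libraries and the largest estimate in HDAC5DAD (log2 fold change -0.28, SE 0.09, adjusted p = 0.0577). That value passed without Uninjured replicate 3 (adjusted p = 0.00258), in edgeR (adjusted p = 0.0424), in DESeq2 (adjusted p = 0.0181) and in the joint fit (adjusted p = 0.0206). Unc5a, a receptor that mediates repulsion by netrin, held 839.5, 1012, 791 and 837 in Uninjured, 807, 859 and 828 in GFP, 841, 905, 789.6 and 842 in HDAC5AA, with 823, 719, 697 and 803 in HDAC5DAD normalized reads and gave -0.06, -0.04 and -0.19. Its libraries overlapped in all groups. Dcc gave -0.01, -0.06 and -0.15, with 95% intervals of -0.18 to 0.16, -0.22 to 0.10 and -0.32 to 0.01. Unc5d passed in HDAC5DAD without Uninjured replicate 4 (log2 fold change -0.25, adjusted p = 0.0353). Ntn1 had the largest estimate of these genes, 0.54 (SE 0.19, adjusted p = 0.0847) in GFP. Unc50 and Plxna4os2 did not pass either.

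Marker genes of several cell types differed between injured and uninjured retina in the same libraries. Beside the counts below, 5.83%, 3.17% and 5.47% of all genes tested were lower in GFP, HDAC5AA and HDAC5DAD. The shares that were higher were 5.57%, 5.38% and 7.8%. Of 13 markers of retinal ganglion cells, 11, 10 and 11 fell in GFP, HDAC5AA and HDAC5DAD, and none rose. Their summed level was 19046 to 21751 in Uninjured, 10364 to 11589.7 in GFP, 11216 to 12427 in HDAC5AA and 10608 to 13132 in HDAC5DAD, with none at 0. Falling members such as Epha6, Robo2, Epha4, Sema6b and Epha10 were lower in the same groups as this sum, and its part in them was not tested. Some markers of other neurons fell too, with 4, 1 and 2 of 6 bipolar markers lower in GFP, HDAC5AA and HDAC5DAD and 1 of 3 horizontal cell markers lower in each. Few photoreceptor markers passed. Of 8 rod markers, 1, 0 and 1 fell and 0, 0 and 1 rose, and of 6 cone markers 1, 0 and 0 fell and 0 rose. The bipolar sum was 15082 to 17591 in Uninjured, 13406 to 14396 in GFP, 13662 to 16206 in HDAC5AA and 13652 to 15387 in HDAC5DAD. The horizontal cell sum was 1311 to 1393 in Uninjured, 936 to 1071 in GFP, 1053 to 1188 in HDAC5AA and 984 to 1234 in HDAC5DAD, below Uninjured in every injured library. Of 7 amacrine markers 0, 0 and 1 fell, and the sums overlapped in all groups. The part of these sums in the falling members was not tested either. Of 9 markers of Mueller glia, 3, 4 and 5 rose and 1 fell in each comparison, while their sum was 93775 to 99734 in Uninjured, 86833 to 88354 in GFP, 92447 to 94829 in HDAC5AA and 90437 to 109427 in HDAC5DAD, lower than Uninjured in GFP and overlapping with it in the others. Of 12 markers of microglia and myeloid cells, 10, 11 and 11 rose and their sum was 873 to 1068 in Uninjured, 2463 to 4381 in GFP, 3229.7 to 6163 in HDAC5AA and 3416 to 6558 in HDAC5DAD. Of the 4 astrocyte markers, 3 were listed and 2 rose in each comparison, with sums of 1062 to 1419 in Uninjured, 1897 to 2468 in GFP, 1854 to 2249 in HDAC5AA and 2051 to 2916 in HDAC5DAD. Of 12 endothelial markers, 0, 3 and 3 rose, with sums of 7020.1 to 7908 in Uninjured, 7819 to 8149.6 in GFP, 7367 to 7979 in HDAC5AA and 7518 to 9000.3 in HDAC5DAD, while 0 of 7 markers of pericytes and smooth muscle passed. No listed marker of these cell types was at 0 in a group. Epha2, Plxnd1, Efna1, Plxna2 and Slit3 were higher in the injured groups, as were the myeloid and astrocyte sums and some Mueller glia markers, whose part in them was not tested. The endothelial sums of all 3 injured groups overlapped with that of Uninjured. Of 5 lens markers, 3 were listed and 0, 1 and 0 rose in GFP, HDAC5AA and HDAC5DAD. Their sum was 20.7 to 97.5 in Uninjured, 11.7 to 840.4 in GFP, 61.2 to 145.6 in HDAC5AA and 19.9 to 226.8 in HDAC5DAD. GFP replicate 2 had the highest lens sum (840.4) and the highest Epha2 value (233), and the part of lens RNA in that value was not tested.

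**Figure D4:**
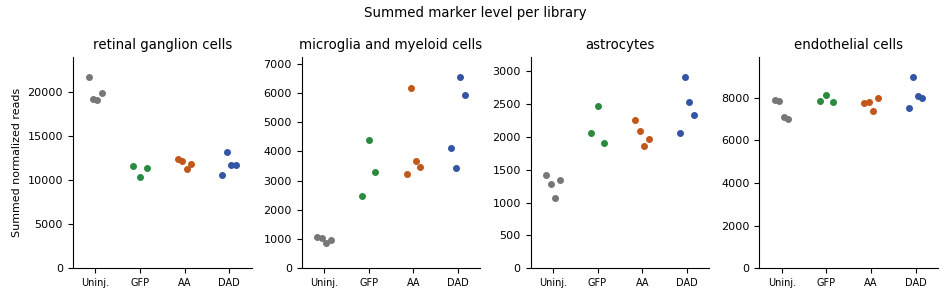
Summed normalized reads of the markers of retinal ganglion cells (13 genes), microglia and myeloid cells (12), astrocytes (3 listed) and endothelial cells (12) in each library of Uninjured (Uninj.), GFP, HDAC5AA (AA) and HDAC5DAD (DAD), each axis starting at 0. The ganglion cell sum lies at 19046 to 21751 in Uninjured and is lower in every injured library, and the myeloid and astrocyte sums are higher in every injured library.

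The HDAC5 forms were compared with GFP, and with each other, among injured retinas, where all libraries had virus and crush. These comparisons share libraries too, HDAC5AA, HDAC5DAD and GFP each standing in 2 of them. No member passed in HDAC5AA against GFP (limma; 0 of 19495 genes, 0% of all tested), HDAC5DAD against GFP (0 members beside 0% of all genes) or HDAC5AA against HDAC5DAD (0 members beside 0.0103% of all genes, or 0.00513% in each direction). At an unadjusted p under 0.05 there were 3, 2 and 7 members in limma, 3, 3 and 6 in edgeR and 3, 2 and 6 in DESeq2. Over all genes tested, limma gave 1284, 2238 and 1322 of 19495 at that threshold. The counts over all genes were 1252, 2335 and 1281 of 18473 in edgeR and 979, 2017 and 1048 of 19495 in DESeq2. Neither edgeR nor DESeq2 called a member after adjustment. Over all genes, edgeR then called 0, 1 and 0, and DESeq2 0, 57 and 6.

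The values nearest to a difference were small. Efnb3 held 421, 422, 434 and 416 normalized reads in HDAC5AA and 352, 375 and 359 in GFP, so that these groups did not overlap, with a log2 fold change of 0.23 (SE 0.08, adjusted p = 0.737). Sema6b, with every HDAC5AA library above every GFP library, gave 0.17 (SE 0.07, adjusted p = 0.738), and Ephb1, a receptor of B ephrins, 0.28 (SE 0.10, adjusted p = 0.737). In HDAC5DAD against GFP, Efnb1 gave 0.19 (SE 0.09, adjusted p = 0.422) and Sema4a 0.21 (SE 0.10, adjusted p = 0.43). In HDAC5AA against HDAC5DAD, the 7 members were Efna5 (0.36), Unc5d (0.18), Unc5a (0.15), Ntng2 (0.17), Plxna1 (0.24), Sema6b (0.14) and Sema3b (-0.23), with adjusted p from 0.713 to 0.732. Of these, Sema3b was lower in HDAC5AA and the others were higher.

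The intervals bound what these libraries could show. For 69, 70 and 70 of the 71 members, in HDAC5AA against GFP, HDAC5DAD against GFP and HDAC5AA against HDAC5DAD, the 95% interval of the log2 fold change lay within 1 in either direction, and for 62, 60 and 63 it lay within 0.5. Epha2 gave 0.01 (95% interval -0.30 to 0.31) in HDAC5AA and -0.02 (-0.33 to 0.28) in HDAC5DAD against GFP. Slit3, with its low HDAC5AA replicate 4, gave -0.59 (-1.26 to 0.09) and -0.23 (-0.91 to 0.45). The widest interval belonged to Plxnb3, with -1.36 (-2.80 to 0.09) in HDAC5DAD against GFP.

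**Figure D5:**
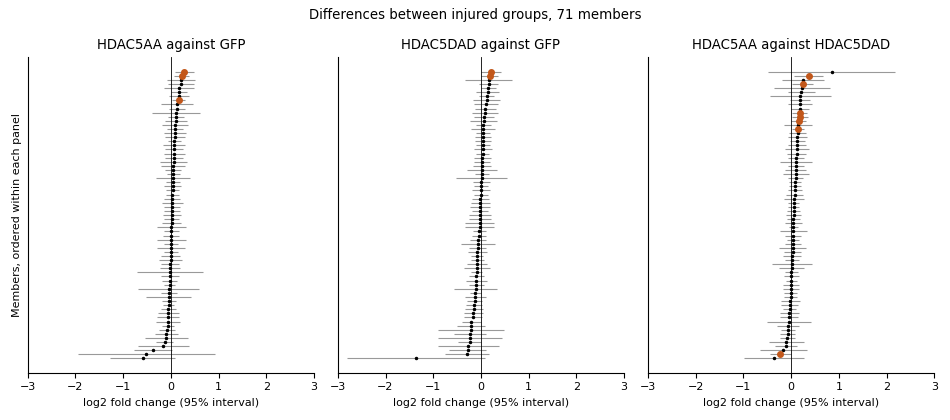
Log2 fold change of the 71 members between injured groups, with 95% intervals from limma, ordered within each panel. Orange points have an unadjusted p under 0.05 (3, 2 and 7 members, beside 1284, 2238 and 1322 of 19495 genes). No member passed after adjustment, and the widest interval is that of Plxnb3.

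Genes that act beside the guidance receptors were counted for comparison. A gene named below for 1 group may have passed in others. Of 55 intracellular effectors of guidance receptors, 5 rose and 6 fell in GFP, 5 and 4 in HDAC5AA and, in turn, 6 and 6 in HDAC5DAD, with medians of -0.02, 0.02 and -0.02 on the log2 scale. Limk1, the kinase that acts on cofilin, fell, with log2 fold changes of -0.72 (SE 0.08, adjusted p = 1.32e-06) in GFP, -0.48 (SE 0.07, adjusted p = 6.86e-05) in HDAC5AA and -0.59 (SE 0.09, adjusted p = 6.68e-05) in HDAC5DAD. Dpysl2 (CRMP2), a transducer of Sema3a, fell in GFP with -0.46 (SE 0.06, adjusted p = 1.28e-05), and Dpysl5 in HDAC5DAD with -0.58 (SE 0.11, adjusted p = 0.000757). Dpysl5 also passed downward in GFP, but that call ended without Uninjured replicate 1 or 2 or GFP replicate 2 or 4 (adjusted p = 0.0935 to 0.162). Mical1, an oxidase of actin downstream of plexins, rose, with values of 0.68 (SE 0.12, adjusted p = 0.000666) in GFP, 0.74 (SE 0.12, adjusted p = 0.000179) in HDAC5AA and 0.60 (SE 0.11, adjusted p = 0.000687) in HDAC5DAD. Fes, a kinase linked to plexin A1, rose in HDAC5AA with 0.61 (SE 0.15, adjusted p = 0.0111) and in HDAC5DAD with 0.73 (SE 0.15, adjusted p = 0.00165). The HDAC5AA call of Fes ended without HDAC5AA replicate 2 (adjusted p = 0.0527) and in libraries holding 1% ribosomal RNA reads or more (0.40, adjusted p = 0.533). Rras, a small GTPase that plexins inactivate, rose in GFP with 0.62 (SE 0.16, adjusted p = 0.0101) and in HDAC5AA with 0.49 (SE 0.14, adjusted p = 0.0328), and it passed upward in HDAC5DAD. Rras lost its GFP call without GFP replicate 3 (adjusted p = 0.0728) and in libraries holding 1% ribosomal RNA reads or more (0.49, adjusted p = 0.104). Its HDAC5AA call ended without Uninjured replicate 2, 3 or 4 or HDAC5AA replicate 1 or 2 (adjusted p = 0.0534 to 0.137). Its HDAC5DAD call ended without Uninjured replicate 3 or HDAC5DAD replicate 2 or 4 (adjusted p = 0.0667 to 0.0788). Both also ended under the ribosomal RNA restriction (0.25, adjusted p = 0.75 and 0.29, adjusted p = 0.495).

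Of 25 adhesion molecules and co-receptors of growing axons, 4 rose and 6 fell in GFP, 3 and 5 in HDAC5AA and, in turn, 5 and 12 in HDAC5DAD, with medians of -0.13, -0.07 and -0.19. Ncam2, a cell adhesion molecule, fell, with log2 fold changes of -0.58 (SE 0.08, adjusted p = 1.93e-05), -0.52 (SE 0.07, adjusted p = 2.62e-05) and -0.62 (SE 0.08, adjusted p = 1.67e-05) in GFP, HDAC5AA and HDAC5DAD. Islr2, a membrane protein of axons, fell in GFP with -0.63 (SE 0.09, adjusted p = 7.95e-05), and Alcam in HDAC5AA with -0.48 (SE 0.07, adjusted p = 5.33e-05). Chl1, a relative of L1 and co-receptor of neuropilin-1, rose, with 0.57 (SE 0.10, adjusted p = 0.000642), 0.39 (SE 0.10, adjusted p = 0.0142) and 0.51 (SE 0.10, adjusted p = 0.00122) in GFP, HDAC5AA and HDAC5DAD. Its HDAC5AA call ended without Uninjured replicate 3 or 4 (adjusted p = 0.0505 and 0.0521). In libraries holding 1% ribosomal RNA reads or more, its HDAC5AA and HDAC5DAD calls ended (0.27, adjusted p = 0.5 and 0.34, adjusted p = 0.165). Flrt3, a ligand of Unc5 receptors, rose in HDAC5AA with 0.46 (SE 0.07, adjusted p = 7.72e-05) and in HDAC5DAD with 0.50 (SE 0.07, adjusted p = 4.07e-05). Of 28 other guidance cues and receptors (Wnt, hedgehog and chemokine genes among them), 1 rose and 2 fell in GFP, 1 and 0 in HDAC5AA and, in turn, 1 and 5 in HDAC5DAD. Ror2, a Wnt5a receptor, was the gene that rose, with 1.11 (SE 0.26, adjusted p = 0.00784), 1.64 (SE 0.22, adjusted p = 4.95e-05) and 1.60 (SE 0.26, adjusted p = 0.000676), and the GFP call ended without GFP replicate 4 (adjusted p = 0.0542). Ptch1, the hedgehog receptor, fell in GFP with -0.38 (SE 0.08, adjusted p = 0.00386) and in HDAC5DAD with -0.34 (SE 0.07, adjusted p = 0.00365). Lrtm1 fell in the same groups, with -0.31 (SE 0.06, adjusted p = 0.00125) and -0.24 (SE 0.06, adjusted p = 0.00862).

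Of 23 listed myelin and proteoglycan inhibitors of axon growth and their receptors, 1 rose and 3 fell in GFP, 1 and 3 in HDAC5AA and, in turn, 1 and 6 in HDAC5DAD, with medians of -0.17, -0.07 and -0.16. Lingo1, a co-receptor for myelin inhibitors that also stands in the adhesion list, fell, with log2 fold changes of -0.50 (SE 0.09, adjusted p = 0.000337), -0.34 (SE 0.08, adjusted p = 0.00866) and -0.49 (SE 0.09, adjusted p = 0.000395). Its HDAC5AA call ended in libraries holding 1% ribosomal RNA reads or more (-0.35, adjusted p = 0.0506). Bcan (brevican) fell, with -0.57 (SE 0.12, adjusted p = 0.00284), -0.70 (SE 0.15, adjusted p = 0.00562) and -0.67 (SE 0.12, adjusted p = 0.000532). Its HDAC5AA and HDAC5DAD calls ended under the same restriction (-0.71, adjusted p = 0.0528 and -0.51, adjusted p = 0.0549). Pirb, a receptor of myelin inhibitors that myeloid cells also express, was the gene that rose, from a low level and with a wide error (2.45 (SE 0.64, adjusted p = 0.022) in HDAC5DAD). That call ended without Uninjured replicate 1, 3 or 4 or HDAC5DAD replicate 1 or 3 (adjusted p = 0.0534 to 0.0969) and in the joint fit (2.43, adjusted p = 0.0563), which also ended the GFP and HDAC5AA calls (2.09, adjusted p = 0.147 and 1.84, adjusted p = 0.214). The counts of all 4 lists stand beside the 11.4%, 8.55% and 13.3% of all genes called in GFP, HDAC5AA and HDAC5DAD. No gene of these lists passed between injured groups.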

How the data were processed

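Total RNA of whole retinas was depleted of ribosomal RNA and read, per the labels' protocols, in single reads of 50 nt. STAR, HTSeq, DESeq2 and the build mm10 appear in the submitters' processing notes, and versions, settings, annotation and strand mode are not given in the sources used here. Per the file headers, each deposited table holds 1 injured group beside the 4 uninjured libraries as a normalized count signal, with the authors' log2 fold change, p-value and adjusted p-value. In every library 100% of the deposited values were whole multiples of 1 factor (tolerance 0.01 read), so read counts were recovered.

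The deposited values are not raw counts, so limma 3.58.1 (limma-trend, robust empirical Bayes, two-sided, in R 4.3.3) on log2(value + 1) was the main test, restricted to genes averaging 1 or more, with Benjamini-Hochberg adjustment over all genes. Fold changes are thus on the log2(value + 1) scale, which understates changes of low genes. Comparisons with Uninjured were fitted in each table, whose scale differs slightly from that of the levels printed. Comparisons between injured groups, and all levels, used recovered reads of the 19495 genes in all 3 tables, scaled by median-of-ratios size factors, with all 4 groups in 1 fit. Alternatives were edgeR 4.0.16 (quasi-likelihood) and DESeq2 1.42.0 on recovered reads, a pseudocount of 0.1, no filter, TMM scaling, a replicate block, leaving out each library, only libraries holding 1% ribosomal RNA reads or more, and a joint or pairwise fit. The main fit was also run on simulated data, and the outcome is not given here. Those data held changes larger than many reported here, in genes with more reads than members such as Slit3. That run therefore does not bear on small changes or low genes.

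Coordinates, exon lengths and overlaps come from GENCODE mouse release 21 (mm10), which held 20190 of 20278 gene IDs. Members and gene lists were chosen with earlier results of these data known. Full values were given for up to 8 called members with the largest change per comparison and the member with the highest level per kb of each family, and the lists' genes were named by up to 4 called genes per list and comparison. Other names were chosen after their values were seen.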

Additional observations from a re-analysis of the deposited data

Results flagged for a closer look

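In 4 cases 1 of 4 libraries lay far from the other 3, by the gap to its nearest neighbour over the group's range against Dixon's 95% critical value for 4 samples. Chance flags about 1 in 20 groups. The groups of 4 libraries were examined for every called or otherwise named member. At that rate, 4 flags are about the number that chance alone gives. No single flag is therefore shown to be more than chance. Sema3b in HDAC5AA replicate 2 held 332 normalized reads, beside 245 to 255 in the other HDAC5AA libraries. Sema6b in Uninjured replicate 1 held 1085, beside 919.7 to 943 in the other uninjured libraries, and its falls passed without that library too. Epha10 in Uninjured replicate 1 held 700.2, below the 731 to 737 of the others. Plxna1 in HDAC5DAD replicate 4 held 607, below the 644 to 649 of the other HDAC5DAD libraries.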

How the results depend on the processing

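The number of members called stayed within 1.5 times that of the main fit under every alternative run. Leaving out 1 library at a time gave 12 to 19 members in GFP, 9 to 13 in HDAC5AA and 16 to 21 in HDAC5DAD against Uninjured, and 0 in each such fit between injured groups. Restricting the fit to libraries holding 1% ribosomal RNA reads or more gave 14, 8 and 13. This also leaves fewer libraries in every group but GFP, so a call lost there does not show a dependence on ribosomal RNA. By direction, the members lower in GFP were 7 with the replicate block and 7 without GFP replicate 2 or 4, in place of 11, the members higher in HDAC5AA were 7 in DESeq2 and 7 with the replicate block in place of 4, and those higher in HDAC5DAD were 4 under that restriction in place of 7. TMM scaling shifted the median log2 fold change of all genes by at most 0.0059. Of the calls of single members, 9 of 18 in GFP, 8 of 10 in HDAC5AA and 10 of 19 in HDAC5DAD held under all alternatives, and none reversed; for the calls that ended, the cause was not tested.

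Replicate numbers showed no clear pairing of the samples: deviations from the group mean correlated by -0.174 to 0.238 (median 0.011, 21 pairs) between libraries with the same number and by -0.25 to 0.323 (63 pairs) between others. These correlations cannot exclude a shared mouse or batch, which the labels do not settle. With the replicate block, 13, 14 and 18 members passed in GFP, HDAC5AA and HDAC5DAD against Uninjured, and 0 between injured groups. The block ended the GFP calls of Efnb3, Epha8, Sema3a, Sema3b and Sema4a (limma, adjusted p = 0.0708 to 0.13). GFP had no replicate 1, so there the block also takes Uninjured replicate 1 out of the comparison. Efnb3 gave -0.28 both with the block and without that library. Loss of that library and pairing cannot be told apart in these lost GFP calls. The block also ended the HDAC5DAD calls of Nrp2 and Slit2 (adjusted p = 0.0904 and 0.0678). Members that gained a call with the block included Epha8, Sema6a and Slit3 in HDAC5AA and Ntng2 in HDAC5DAD. Depth limits the members with few reads, such as Plxnb3, Plxna4os2 and Efna4.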
